A study of Homo sapiens with 9 samples.

Results

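The genes described here encode the subunits, regulators and assembly chaperones of the proteasome. They are the 47 genes whose symbol is PSMA, PSMB, PSMC, PSMD, PSME, PSMF or PSMG followed by a number, out of 16630 genes in the deposited table. Of the 47, 46 have a role in the proteasome. PSMC3IP is in the rule by its name only and encodes a recombination factor that binds PSMC3. The 5 immunoproteasome genes (PSMB8, PSMB9, PSMB10, PSME1 and PSME2) are set beside the other 42. PSMA8 and PSMB11 were not analysed here.

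The cells were H1650, a human line established from a non-small cell lung cancer, taken 3 days after siRNA transfection at 20 nM. Control cells received a pool of siRNAs with no intended target. siMENA cells received pooled siRNAs against every ENAH transcript. ENAH encodes the actin regulator hMENA. siMENA11a cells received siRNAs against its exon 11a, mixed. Each group had 3 libraries of ribosome-depleted RNA, so all values come from 1 cell line, 1 time and transfected cells only. Levels are FPKM, which scale fragments by transcript length and library total. Differences are log2 fold changes of FPKM + 1 from limma, which understate the change of genes with low values. A gene passed at an adjusted p under 0.05 over all 13273 genes tested, and p-values measure the spread between these libraries. In bulk RNA, fewer cells of a type and less RNA per cell cannot be told apart.

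ENAH was at 26.1, 30.04 and 26.1 FPKM in the control libraries. It was at 4.43, 5.79 and 5.57 FPKM under siMENA and at 9.98, 11.0 and 10.3 FPKM under siMENA11a. The 3 groups did not overlap, and the means were 19.2% and 38.1% of control. The smallest p that 3 against 3 libraries allow is 0.1, and the exact two-sided permutation test gave 0.1 in each comparison. All 6 epithelial markers were listed, led by KRT8 at a mean of 1446 FPKM. Of the leukocyte, fibroblast and endothelial markers 2 of 6, 3 of 6 and 4 of 5 were listed. The highest of each type were CD14 at a mean of 4.12, COL3A1 at 0.98 and TEK at 0.88 FPKM. CD14 and COL3A1 were highest in replicate 2 of every group, as was PECAM1, at no more than 0.0755 FPKM. The other listed markers of these types (LYZ, COL1A1, COL1A2, VWF, CDH5 and TEK) were not. COL1A1 was lowest in replicate 2 of control, at 0.306 FPKM beside 0.341 and 0.364. Replicate 2 of control, siMENA and siMENA11a held CD14 at 5.46, 4.74 and 7.21 FPKM and COL3A1 at 2.24, 3.22 and 1.90. The summed epithelial markers ran from 4820 to 5135 FPKM in control, 4693 to 4893 under siMENA and 3939 to 4425 under siMENA11a. The markers did not move together. Under siMENA11a the means of KRT8, KRT18, KRT19 and CDH1 were 78.9%, 75.9%, 93.7% and 74.9% of control. Those of EPCAM and KRT7 were 106.0% and 105.2%. The part of the shift in the sum in the results was not tested.

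The proteasome is the protease that breaks down proteins tagged with ubiquitin. Its core is a barrel of alpha and beta rings, in which PSMB5, PSMB6 and PSMB7 carry the cutting sites, and a regulatory cap of ATPases (PSMC) and non-ATPases (PSMD) unfolds and feeds in the substrate. Interferon signalling induces PSMB8, PSMB9 and PSMB10, which replace PSMB5, PSMB6 and PSMB7 in new cores, and PSME1 with PSME2, which form an alternative cap. The immunoproteasome so formed is known for making peptides that MHC class I presents to T cells.

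Interferon-responsive promoters often hold paired GAAA repeats, so the promoters of the immunoproteasome genes that hold such a pair are shown here. Promoters of RefSeq (GRCh38.p14, 250 bases before to 50 after the start) were found for 41 of the 47 genes. The motif of 2 GAAA repeats with any 2 bases between them, the core of the interferon-stimulated response element, was searched on both strands. It occurred in 4 of the 5 immunoproteasome promoters and in 3 of the 36 others (PSMA4, PSMB4 and PSMG4). It occurred in 4.38% of the promoters of all 27305 genes and in 3.89% of those of the 11079 genes that are also in the FPKM table. The 4 promoters that hold it are printed from 130 bases before to 20 after the start, in the direction of the gene, with the motif in capitals. They lie at chr16:67936831-67936980 (minus strand, PSMB10), chr14:24136064-24136213 (plus strand, PSME1), chr14:24146591-24146740 (minus strand, PSME2) and chr6:32844028-32844177 (minus strand, PSMB8).
PSMB10: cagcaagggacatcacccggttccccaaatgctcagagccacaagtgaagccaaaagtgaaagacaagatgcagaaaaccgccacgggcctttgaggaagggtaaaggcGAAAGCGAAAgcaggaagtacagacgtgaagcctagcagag
PSME1: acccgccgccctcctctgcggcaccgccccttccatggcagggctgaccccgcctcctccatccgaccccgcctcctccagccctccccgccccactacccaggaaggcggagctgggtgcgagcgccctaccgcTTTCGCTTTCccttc
PSME2: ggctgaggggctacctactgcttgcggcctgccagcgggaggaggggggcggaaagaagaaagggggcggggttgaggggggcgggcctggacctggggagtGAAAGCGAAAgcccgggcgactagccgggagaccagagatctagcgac
PSMB8: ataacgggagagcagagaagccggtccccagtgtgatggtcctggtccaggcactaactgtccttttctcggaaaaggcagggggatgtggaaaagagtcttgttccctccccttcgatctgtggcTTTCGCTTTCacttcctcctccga
In all 4 the matched letters, read on the strand of the motif, were GAAAGCGAAA. PSMB10 and PSME2 carry them on the strand of the gene before the start, and PSME1 and PSMB8 carry them on the opposite strand at or just after it. The PSMB9 promoter holds no such pair in this window. A match is a description of letters and shows no binding.

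The other motifs searched did not set the immunoproteasome genes apart in the same way. TGACNNNGC, the core of the antioxidant response element that the transcription factor NRF1 (NFE2L1) binds, occurred in 3 of 5 immunoproteasome promoters (PSMB9, PSME1 and PSME2), in 12 of 36 others and in 16.1% of all. TTCNNNGAA, the core of STAT sites, occurred in 1 of 5 (PSMB8), in 6 of 36 and in 9.38% of all. CCAAT occurred in 1 of 5 (PSMB9), in 19 of 36 and in 39.7% of all. Matches were counted motif by motif, also where they overlap.

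Proteasome RNA was abundant in every library. 41 of the 47 genes had a mean above 20 FPKM over the 9 libraries. In the alpha ring, which gates the barrel, means ran from 41.6 FPKM for PSMA5 to 418.7 for PSMA7, with a median of 143. In the constitutive beta ring they ran from 24.97 FPKM for PSMB2 to 299.97 for PSMB3, with a median of 156. The ATPases lay closer together, from 52.1 FPKM for PSMC2 to 106.6 for PSMC4, and the non-ATPases ran from 32.5 for PSMD13 to 131.3 for PSMD8. The chaperones and the other regulators were lower. The base chaperones ran from 18.8 FPKM for PSMD9 to 38.6 for PSMD10, the core chaperones from 8.22 for PSMG4 to 58.1 for PSMG2, and the other regulators from 12.5 for PSME4 to 35.02 for PSME3. The SD within a group was a median of 4.92% of the group mean. For 12 of the genes the annotation lists pseudogenes (32 in all, 13 of them of PSMC1), and since the counting is not given in the sources used here, values of these 12, which include PSMA3, PSMB3, PSMD7, PSMD10 and PSME2, are uncertain where reads are shared.

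PSMB8 and PSMB9 stood far below the rest. PSMB8, the inducible counterpart of PSMB5, was listed at 0.322, 0.218 and 0.203 FPKM in control, 0.136, 0.280 and 0.165 under siMENA, and 0.422 and 0.296 under siMENA11a, where replicate 2 has no value. PSMB9, the counterpart of PSMB6, was listed at 0.101 and 0.132 FPKM in control, where replicate 3 has no value, 0.0840, 0.139 and 0.3996 under siMENA, and 0.0857, 0.152 and 0.146 under siMENA11a. The groups overlap for both genes. Neither was tested, since each has a missing value and a mean under 0.5 FPKM. PSMB10, the third inducible subunit, had a mean of 191.4 FPKM in the same libraries.

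The low values of PSMB8 and PSMB9 were shared by their neighbours on chromosome 6, where both lie in the MHC region. In RefSeq gene order, 13 of the 50 protein-coding genes within 25 places of PSMB8 on either side have a row in the table, with a median of 0.239 FPKM, and 1 of the 13 reached 5 FPKM. Within 50 places it was 36 of 100 genes, with a median of 0.432 FPKM, and 13 of the 36 reached 5 FPKM. On 1 side the low stretch ends within this window, where RPS10, a ribosomal protein gene, had a mean of 730.4 FPKM. Genes of chromosome 6 more than 150 places away had a row in 560 of 748 cases and a median of 6.56 FPKM, near the 8.38 FPKM of other chromosomes. The 50 genes on each side of PSMB10, on chromosome 16, had a median of 16.2 FPKM and a row in 96 of 100 cases. The low genes of the region include some that nearly all dividing cells use. BRD2, a chromatin reader, ran from 0.307 to 0.418 FPKM, DAXX, a histone chaperone, from 0.0189 to 0.0693 FPKM, and TUBB, a main beta tubulin that lies farther from PSMB8, had a mean of 0.0687 FPKM. Genes without a row were not analysed here, so only the levels of listed genes are read. The levels of PSMB8 and PSMB9 are therefore given as listed, and the cause of the low stretch was not tested.

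**Figure D1:**
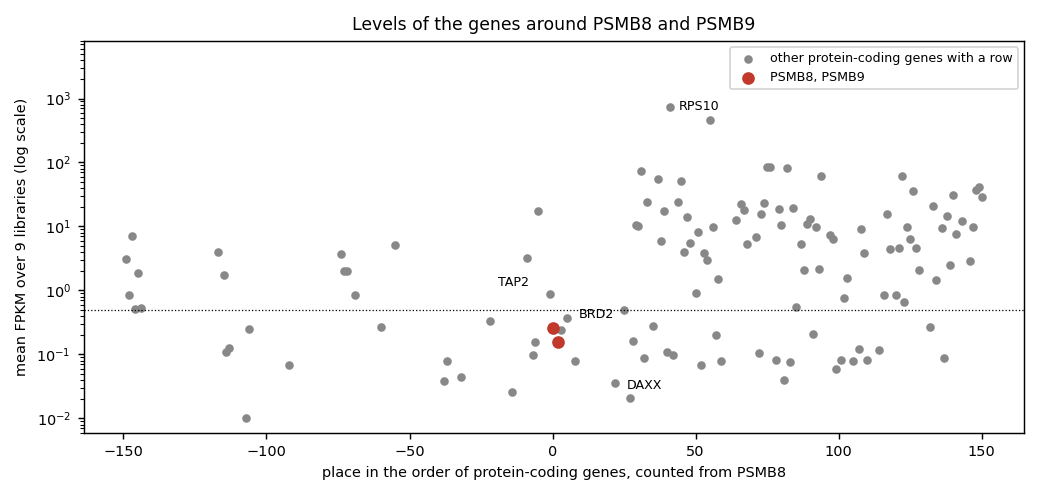
Mean FPKM over 9 libraries (log axis, values below 0.01 drawn at 0.01) of the genes around PSMB8, by their place in gene order from PSMB8. The listed genes within 25 places have a median of 0.239 FPKM, and the dotted line marks the 0.5 FPKM that a gene needed to be tested.

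In the main fit, which holds the group only, each of the 3 immunoproteasome genes outside that region passed as higher than control under 1 siRNA. These were PSMB10 and PSME1 under siMENA11a and PSME2 under siMENA. With the replicate number as a block, PSMB10 and PSME1 also passed as higher under siMENA. PSMB10 was at 181.3, 152.3 and 161.3 FPKM in control, 202.1, 187.1 and 193.7 under siMENA and 227.2, 186.4 and 231.1 under siMENA11a. Every siRNA library lay above every control library, and replicate 2 was the lowest of its group each time. Under siMENA11a PSMB10 rose by 0.38 (log2, SE 0.09, limma adjusted p = 0.0193, 3 of 3 libraries). Under siMENA its difference was 0.24 (95% interval 0.03 to 0.44), which did not pass (limma adjusted p = 0.101) but did with the replicate number as a block (limma adjusted p = 0.0294). The siMENA11a call was lost on leaving out control replicate 2, control replicate 3, siMENA11a replicate 1 or siMENA11a replicate 3 (limma adjusted p from 0.0579 to 0.0681, and 0.00425 to 0.0681 over the settings tried). Here and below, the settings tried for a gene are those in which it was tested, and the setting without repaired values kept 12 proteasome genes.

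PSME1, the alpha subunit of the interferon-inducible cap, followed the same order of groups. It was at 69.75, 58.51 and 64.37 FPKM in control, 81.41, 70.26 and 76.81 under siMENA and 96.68, 75.34 and 92.71 under siMENA11a. The siRNA libraries lay above the control libraries without overlap, and replicate 2 was again the lowest of each group. PSME1 rose by 0.45 under siMENA11a (log2, SE 0.10, limma adjusted p = 0.0132) and kept an adjusted p under the threshold in each setting in which it was tested (0.000788 to 0.0494). Under siMENA the difference of 0.24 (95% interval 0.02 to 0.47) did not pass (limma adjusted p = 0.119) but did with the replicate number as a block (limma adjusted p = 0.0112).

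PSME2, the beta subunit of that cap, differed more under siMENA. It was at 117.1, 109.2 and 111.4 FPKM in control, 154.4, 137.2 and 138.9 under siMENA and 133.3, 114.4 and 132.0 under siMENA11a. The siMENA libraries lay above all 6 others, while siMENA11a replicate 2 fell within the control range. PSME2 rose by 0.35 under siMENA (log2, SE 0.07, limma adjusted p = 0.0104, and at most 0.046 over the settings tried). Under siMENA11a the difference was 0.16 (95% interval 0.00 to 0.33, limma adjusted p = 0.143). Between the siRNAs 0 of the 3 genes passed and 1 had an unadjusted p under 0.05, with siMENA11a minus siMENA at 0.14 for PSMB10, 0.20 for PSME1 and -0.18 for PSME2 (limma adjusted p = 0.268, 0.139 and 0.0773). With the replicate number as a block PSME1 was higher and PSME2 lower under siMENA11a than under siMENA (limma adjusted p = 0.0129 and 0.0274). PSMB10 passed neither with nor without the block. Whether the siRNAs differ in PSME1 and PSME2 therefore depends on the fit, and for PSMB10 it is not settled by the test.

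The subunits that PSMB8, PSMB9 and PSMB10 replace did not pass as higher under either siRNA. PSMB5 was at 51.16, 61.91 and 58.57 FPKM in control, 58.44, 55.55 and 52.01 under siMENA and 53.88, 55.09 and 54.24 under siMENA11a. PSMB7 was at 97.91, 100.8 and 98.12 FPKM in control, 107.1, 100.4 and 91.92 under siMENA and 100.03, 98.80 and 95.17 under siMENA11a. The groups of both genes overlap. The difference from control was -0.04 (95% interval -0.21 to 0.12) and -0.07 (-0.23 to 0.09) for PSMB5 under siMENA and siMENA11a, and 0.01 (-0.12 to 0.14) and -0.01 (-0.15 to 0.12) for PSMB7. PSMB6 was at 164.6, 186.0 and 164.5 FPKM in control, 162.2, 168.1 and 147.4 under siMENA and 138.2, 131.6 and 140.3 under siMENA11a. Its siMENA11a libraries lay below all 6 others. PSMB6 fell by 0.32 under siMENA11a (log2, SE 0.07, limma adjusted p = 0.0108, and 0.00968 to 0.0379 over the settings tried), and under siMENA its difference of -0.11 (95% interval -0.26 to 0.05) did not pass (limma adjusted p = 0.31).

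The ratio of an inducible subunit to the subunit it replaces could be tested for PSMB10 over PSMB7 only. It was 1.67 ± 0.17 in control, 1.95 ± 0.13 under siMENA and 2.20 ± 0.28 under siMENA11a (SD, n = 3). The log2 ratio was higher than control by 0.23 and 0.39, and the siRNAs differed by 0.16. Exact two-sided permutation tests gave p = 0.1, 0.1 and 0.2 (0.15, 0.15 and 0.2 adjusted over the 3 tests), where 0.1 is the smallest that this design allows.

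**Figure D2:**
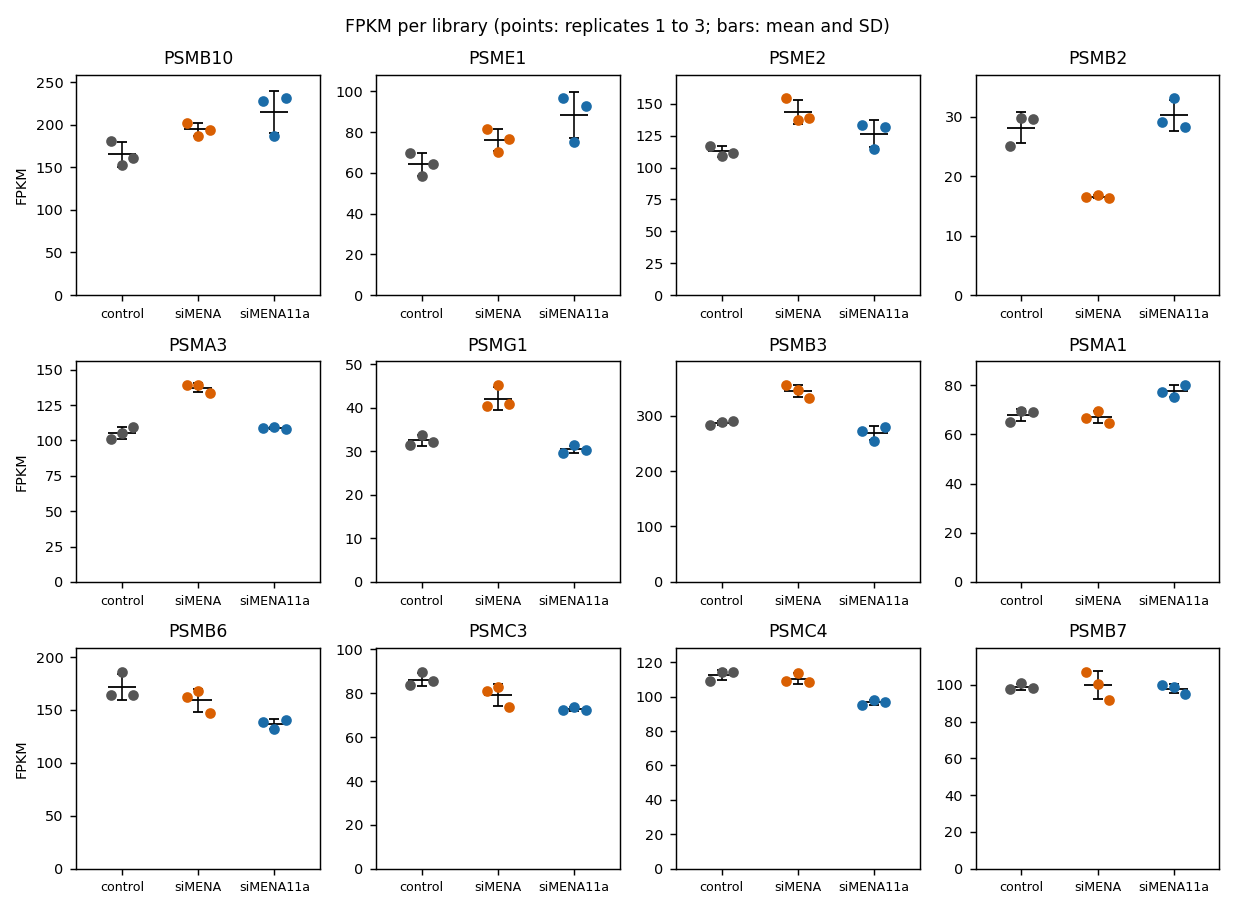
FPKM (axes from 0) of 12 proteasome genes in each library, with points for replicates 1 to 3 and bars for the mean and SD of each group. PSMB10 and PSME1 lie above control under both siRNAs, PSMB2 is at 16.4 to 16.8 FPKM in the siMENA libraries only, and PSMB7 overlaps in all groups.

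Among all proteasome genes, few passed in either comparison with control, and the comparisons share the control libraries. Under siMENA, 6 of 45 tested genes rose and 2 fell, beside 18.6% of all genes tested that passed (10.3% higher, 8.24% lower), and the median difference was 0.048 against 0.038 for all genes. With the replicate number as a block 9 rose and 2 fell, and 3149 genes passed in place of 2463. Of all passing genes 55.6% were higher, against 43.8% with median-ratio scaling. Under siMENA11a, 3 rose and 3 fell, beside 19.5% of all genes tested (8.16% higher, 11.3% lower), with medians of -0.018 and -0.012. For the 42 genes outside the immunoproteasome the counts were 5 higher and 2 lower under siMENA, and 1 higher and 3 lower under siMENA11a, with medians of 0.031 and -0.025. The 3 tested immunoproteasome genes had medians of 0.24 and 0.38. The shares that passed lie near or below those of all genes. The summed FPKM of the 41 constitutive proteasome genes was 3715, 4027 and 3895 in control, 4226, 4164 and 3906 under siMENA and 3736, 3676 and 3835 under siMENA11a. Each siRNA group overlaps the control group, while the siMENA sums all lie above the siMENA11a sums, and this difference was not tested. The count of 6 higher under siMENA was 3 without siMENA replicate 1. The count of 2 lower was 1 without any 1 of control replicates 1 to 3, siMENA replicates 1 and 2 and siMENA11a replicate 1. The count of 3 higher under siMENA11a was 1 when control replicate 2, control replicate 3, siMENA11a replicate 1 or siMENA11a replicate 3 was left out.

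**Figure D3:**
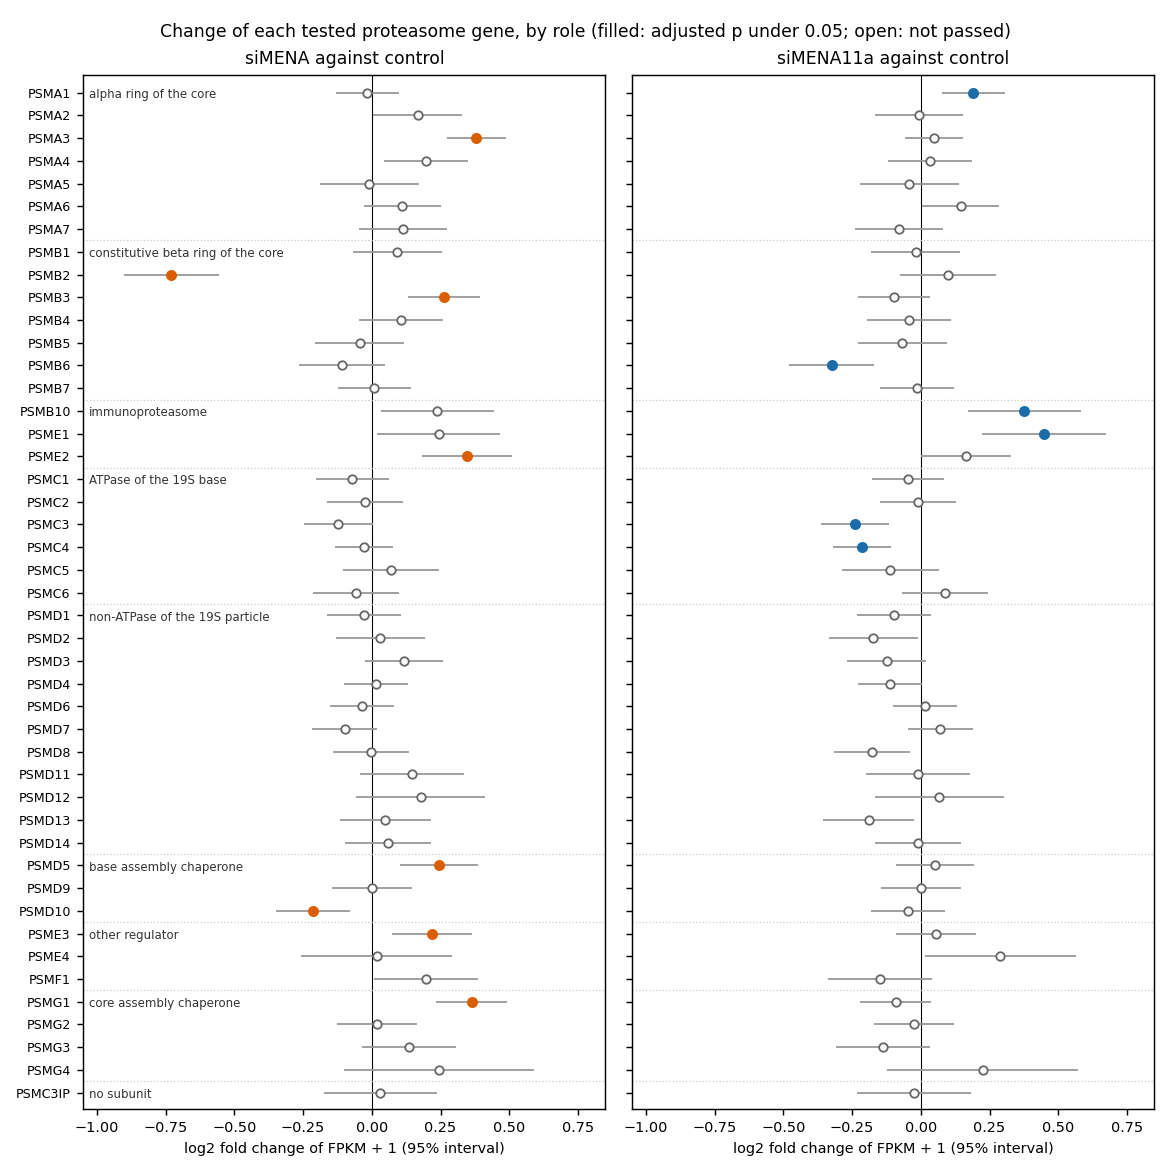
Log2 fold change of FPKM + 1 with its 95% interval for the 45 tested proteasome genes, grouped by role, for each siRNA against control, with filled points for genes that passed. PSMB2 under siMENA, at -0.73, lies farthest from 0 among the differences from control.

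PSMB2, a non-catalytic subunit of the beta ring, had the widest difference from control of any tested proteasome gene under either siRNA. It was at 25.15, 29.78 and 29.55 FPKM in control, 16.43, 16.80 and 16.37 under siMENA and 29.17, 33.12 and 28.33 under siMENA11a. The siMENA libraries have an SD of 0.23 FPKM and lie below all 6 others, and their mean is 58.7% of control, against 107.3% under siMENA11a. PSMB2 fell by 0.73 under siMENA (log2, SE 0.08, limma adjusted p = 0.000312) and passed in each setting in which it was tested (at most 0.00278). Under siMENA11a its difference of 0.10 (95% interval -0.07 to 0.27) did not pass (limma adjusted p = 0.413). The siRNAs differed by 0.83 (limma adjusted p = 5.63e-05, SE 0.08).

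No other beta ring gene passed as lower under siMENA. PSMB3, a further non-catalytic subunit, was at 283.2, 287.8 and 290.0 FPKM in control, 355.3, 345.9 and 332.3 under siMENA and 272.8, 253.6 and 278.9 under siMENA11a. Its siMENA libraries lay above all 6 others. PSMB3 rose by 0.26 under siMENA (log2, SE 0.06, limma adjusted p = 0.0131), a call lost on leaving out siMENA replicate 1 (limma adjusted p = 0.0575, and 0.00214 to 0.0575 over the settings tried).

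An siRNA can lower transcripts whose 3′ UTR pairs with its seed, so short words in annotated 3′ UTRs (GENCODE release 29) were looked up. The words were picked in an earlier look at these data as frequent among genes that fell, so a high share among genes that fell is built in. For siMENA the words were CAGAATA and AGAATAA. PSMB2 and PSMD10, the 2 proteasome genes that fell, hold one, as do 9 of the 45 tested proteasome genes and 25.8% of the 19115 genes searched. PSMD5, which rose, also holds one, and PSMA5, PSMD8, PSMD12, PSME4, PSMF1 and PSMG4 hold one and did not pass. For siMENA11a (CCAAGGA and CAAGGAA) 5 of 45 proteasome genes hold a word, none of which passed (0 of 3 that fell and 0 of 3 that rose), against 23.6% of the genes searched. The siRNA sequences were not used here, and whether pairing lowered PSMB2 was not tested.

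In the alpha ring, PSMA3 and PSMA1 passed under different siRNAs. PSMA3 was at 101.3, 105.6 and 109.2 FPKM in control, 138.9, 139.2 and 133.8 under siMENA and 108.9, 109.5 and 108.3 under siMENA11a. The siMENA libraries lay above all 6 others. PSMA3 rose by 0.38 under siMENA (log2, SE 0.05, limma adjusted p = 0.000865, at most 0.00657 over the settings tried), and under siMENA11a its difference was 0.05 (95% interval -0.06 to 0.16). PSMA1 was at 65.18, 69.39 and 68.98 FPKM in control, 66.85, 69.70 and 64.67 under siMENA and 77.27, 75.34 and 80.09 under siMENA11a, where it lay above all 6 others. PSMA1 rose by 0.19 under siMENA11a (log2, SE 0.05, limma adjusted p = 0.0279), and this call ended without any 1 of control replicates 1 to 3 and siMENA11a replicates 1 and 3 and in a fit of only these groups (limma adjusted p up to 0.0929, and 0.009 to 0.0929 over the settings tried). The other 5 alpha ring genes passed in neither comparison with control.

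Among the 6 ATPases, which drive unfolding of the substrate, 0 passed under siMENA by limma, with 0 at an unadjusted p under 0.05. Under siMENA11a 2 of the 6 fell (33.3%, beside 11.3% of all genes tested). PSMC3 was at 83.65, 89.77 and 85.42 FPKM in control, 80.99, 83.10 and 73.73 under siMENA and 72.44, 73.98 and 72.29 under siMENA11a. PSMC4 was at 109.0, 114.4 and 114.1 FPKM in control, 109.0, 113.9 and 108.2 under siMENA and 95.28, 98.18 and 96.99 under siMENA11a. In both genes the siMENA11a libraries lay below the control libraries without overlap. PSMC3 fell by 0.24 (log2, SE 0.06, limma adjusted p = 0.016), a call lost on leaving out control replicate 2 or siMENA11a replicate 1 (limma adjusted p up to 0.0591, and 0.0105 to 0.0591 over the settings tried). PSMC4 fell by 0.21 (log2, SE 0.05, limma adjusted p = 0.0123), a call lost on leaving out control replicate 3 (limma adjusted p = 0.0538, and 0.00974 to 0.0538 over the settings tried). Of the 11 non-ATPases of the cap, 0 passed under either siRNA against control by limma, with 0 and 3 at an unadjusted p under 0.05. Of all genes tested 18.6% passed under siMENA and 19.5% under siMENA11a.

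The chaperones and regulators gave small differences that passed under siMENA. PSMG1, which helps to assemble the alpha ring, was at 31.47, 33.83 and 32.18 FPKM in control, 40.37, 45.23 and 40.81 under siMENA and 29.72, 31.36 and 30.20 under siMENA11a. The siMENA libraries lay above all 6 others, and PSMG1 rose by 0.36 (log2, SE 0.06, limma adjusted p = 0.00288, at most 0.0161 over the settings tried). The base chaperones PSMD5 and PSMD10 moved in opposite directions. PSMD5 was at 18.04, 19.48 and 20.13 FPKM in control and 22.11, 23.78 and 22.88 under siMENA and rose by 0.24 (log2, SE 0.06, limma adjusted p = 0.0257). PSMD10, also known as gankyrin, was at 43.67, 40.02 and 39.39 FPKM in control and 34.94, 33.96 and 36.67 under siMENA and fell by 0.21 (log2, SE 0.06, limma adjusted p = 0.0344). Neither overlapped its control libraries. PSME3, the nuclear cap known as PA28 gamma, was at 31.99, 33.81 and 32.31 FPKM in control and 38.05, 38.10 and 38.53 under siMENA and rose by 0.22 (log2, SE 0.07, limma adjusted p = 0.0425).

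These last 3 calls lie near the threshold, and each was lost on leaving out any 1 of several libraries. The PSMD5 call ended without any 1 of control replicates 1 and 2 and siMENA replicates 1 to 3 (limma adjusted p up to 0.0909, and 0.0159 to 0.0909 over the settings tried). The PSMD10 call ended without any 1 of control replicates 1 to 3, siMENA replicates 1 and 2 and siMENA11a replicate 1 and without the mean-variance trend (limma adjusted p up to 0.117, and 0.0229 to 0.117 over the settings tried). The PSME3 call ended without any 1 of the 6 libraries compared or siMENA11a replicate 1, with both other scalings and without the trend (limma adjusted p up to 0.121, and 0.0121 to 0.121 over the settings tried). The core chaperone PSMG4, at 8.486, 6.046 and 7.172 FPKM in control and 10.48, 7.584 and 8.225 under siMENA, did not pass (0.24, limma adjusted p = 0.301) but did with the replicate number as a block (limma adjusted p = 0.0192).

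Set directly against each other, the siRNAs differed in more proteasome genes. In siMENA11a against siMENA, 3 of 45 were higher and 10 lower, beside 36.6% of all genes tested that passed (14.4% higher, 22.2% lower), and the median was -0.11 against -0.045 for all genes. Of all passing genes 39.4% were higher, against 49.9% with median-ratio scaling. The share of proteasome genes that passed lies below that of all genes, and the share that was lower is at it. PSMG1 (-0.46, limma adjusted p = 0.000292), PSMB3 (-0.36, 0.00119), PSMF1 (-0.35, 0.0103) and PSMA3 (-0.33, 0.000648) were lower and PSMB2 (0.83) and PSMA1 (0.21, 0.0109) higher in each setting in which they were tested. PSMF1, an inhibitor of the core, was at 27.63, 25.70 and 25.07 FPKM under siMENA and 21.17, 22.52 and 17.58 under siMENA11a, without overlap. Its control libraries, at 21.50, 23.24 and 23.22 FPKM, lay between or within these.

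The other 7 that passed between the siRNAs lost the call in at least 1 setting. PSMG3 (-0.27, limma adjusted p = 0.0196) was lost without siMENA replicate 1 or 3, PSMD3 (-0.24, 0.0146) and PSMC4 (-0.19, 0.0119) without siMENA replicate 2, and PSMB6 (-0.22, 0.0338) without siMENA replicate 1 or 2, siMENA11a replicate 1 or 2 or with median-ratio scaling. PSMD13 (-0.24, 0.03) was lost without any 1 siMENA library or siMENA11a replicate 1, and PSMD7 (0.17, 0.0317) without siMENA replicate 1 or 3, siMENA11a replicate 1 or 2 or control replicate 3. PSMD5 (-0.19, 0.0379) was lost without control replicate 2, any 1 siMENA library or siMENA11a replicate 1 or 3. Where these calls were lost, the limma adjusted p ran from 0.0506 for PSMD5 to 0.121. PSMD13, PSMD7 and PSMD5 were also lost in a fit of only the siMENA and siMENA11a groups, PSMD13 and PSMD5 with both other scalings, and PSMD5 without the trend. The count of 10 lower was 6 without siMENA replicate 1 and 5 without siMENA replicate 2, and the count of 3 higher was 5 without siMENA11a replicate 2.

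Other genes of the pathway are given by list, beside the shares of all genes tested that were higher and lower (10.3% and 8.24% under siMENA, 8.16% and 11.3% under siMENA11a). Of 12 genes that control interferon responses, 6 rose and 1 fell under siMENA and 6 rose and 0 fell under siMENA11a, with medians of 0.19 and 0.25 against 0.038 and -0.012 for all genes, and the list was drawn up with earlier results of these data known. IRF9, a transcription factor of the type I interferon response, was at 15.11, 14.49 and 15.69 FPKM in control, 21.30, 20.05 and 21.01 under siMENA and 31.69, 27.31 and 29.08 under siMENA11a, and rose by 0.44 and 0.91 (log2, limma adjusted p = 0.00175 and 6.06e-05). The 3 groups are fully apart, and the IRF9 means stand in the same order as those of PSMB10 and PSME1. The PSME2 means do not, at 112.6 FPKM in control, 143.5 under siMENA and 126.6 under siMENA11a. IRF9 also differed between the siRNAs, by 0.48 (log2, limma adjusted p = 0.00039), where PSMB10 and PSME1 did not pass. PSME1 did pass there with the replicate number as a block (limma adjusted p = 0.0129).

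NLRC5, the activator of MHC class I genes, and IFNGR1, a chain of the interferon gamma receptor, each passed under 1 siRNA. NLRC5 was at 2.21, 2.39 and 2.14 FPKM in control, 2.27, 3.03 and 2.58 under siMENA and 3.42, 4.01 and 3.50 under siMENA11a, and rose by 0.51 under siMENA11a (log2, limma adjusted p = 0.00525). IFNGR1 was at 28.28, 32.60 and 26.27 FPKM in control, 14.56, 20.28 and 17.28 under siMENA and 34.55, 38.74 and 38.71 under siMENA11a, and fell by 0.72 under siMENA (log2, limma adjusted p = 0.0029). For both the siRNAs themselves differed, by 0.36 and 1.07 (log2, limma adjusted p = 0.0141 and 0.000107). The NLRC5 difference between the siRNAs did not pass without siMENA replicate 1 (limma adjusted p = 0.0559, and 0.00504 to 0.0559 over the settings tried).

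Of 9 tested genes that supply or hold MHC class I peptides, 1 rose under siMENA and 3 rose and 2 fell under siMENA11a (11.1% and 55.6% passed, against 18.6% and 19.5% of all genes tested). B2M, the light chain of MHC class I, was at 1185, 1065 and 1056 FPKM in control, 1051, 1115 and 993.5 under siMENA and 1827, 1565 and 1949 under siMENA11a, and rose by 0.69 under siMENA11a (log2, limma adjusted p = 0.00208). CALR, a chaperone of class I loading, was at 343.1, 349.5 and 357.2 FPKM in control, 347.5, 330.1 and 307.6 under siMENA and 238.4, 214.2 and 225.7 under siMENA11a, and fell by 0.63 there (log2, limma adjusted p = 0.000319). ERAP2, which trims peptides, fell by 0.36 under siMENA11a (log2, limma adjusted p = 0.0143).

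The NRF1 axis, which raises proteasome genes when the protease is inhibited, gave 1 higher and 1 lower of 12 under siMENA and 3 higher and 0 lower under siMENA11a (16.7% and 25% passed, against 18.6% and 19.5% of all genes tested). NFE2L1, the factor itself, was at 60.57, 55.66 and 62.11 FPKM in control, 64.10, 60.49 and 59.70 under siMENA and 74.67, 77.78 and 70.57 under siMENA11a, and rose by 0.32 (log2, limma adjusted p = 0.006) there. MAFG, which pairs with it on DNA, was at 9.41, 8.73 and 8.93 FPKM in control, 8.82, 9.25 and 8.93 under siMENA and 11.89, 12.85 and 11.09 under siMENA11a, and rose by 0.37 (log2, limma adjusted p = 0.00458). In both genes the siMENA11a libraries lay above all 6 others. NGLY1, which deglycosylates NRF1, rose by 0.35 under siMENA, and SEL1L, a part of the pathway that removes proteins from the endoplasmic reticulum, fell by 0.32 (log2, limma adjusted p = 0.00776 and 0.0056).

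**Figure D4:**
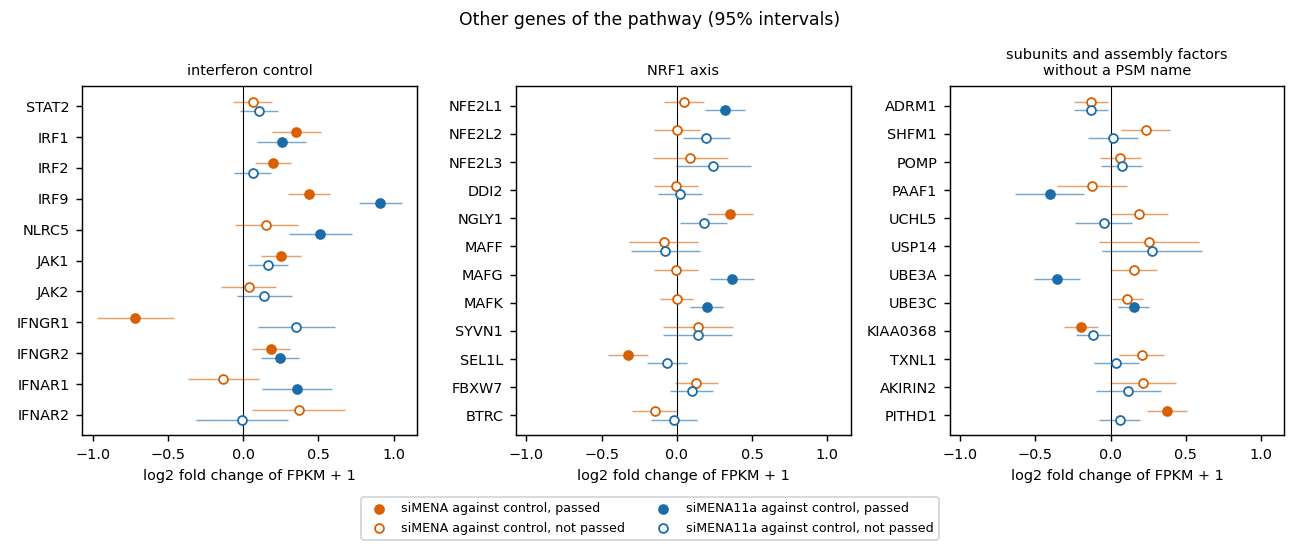
Log2 fold change of FPKM + 1 against control with its 95% interval for genes of 3 other lists of the pathway, with filled points for genes that passed. IRF9 lies to the right under both siRNAs, at 0.44 under siMENA and 0.91 under siMENA11a, and IFNGR1 lies at -0.72 under siMENA.

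A further list holds 12 subunits, assembly factors and proteins that bind the proteasome, all without a PSM name. It gave 1 higher and 1 lower under siMENA and 1 higher and 2 lower under siMENA11a. These are 16.7% and 25% of the list, near the 18.6% and 19.5% of all genes tested. PITHD1, which associates with the proteasome, rose by 0.37 under siMENA (log2, limma adjusted p = 0.00313), from 19.81, 18.05 and 17.12 FPKM in control to 24.26, 24.56 and 23.22. KIAA0368, a scaffold that binds the cap, fell by 0.20 under siMENA (log2, limma adjusted p = 0.0242), a call lost on leaving out siMENA replicate 1 or 2 or, among the controls, replicate 1 or 3 (limma adjusted p up to 0.0877, and 0.0154 to 0.0877 over the settings tried). UBE3A, a ubiquitin ligase that binds the proteasome, was at 33.13, 35.82 and 34.05 FPKM in control and 26.77, 23.95 and 29.32 under siMENA11a and fell by 0.36 (log2, limma adjusted p = 0.00718). PAAF1, which holds the ATPases before assembly, fell by 0.41 under siMENA11a (log2, limma adjusted p = 0.0227), a call lost on leaving out control replicate 2, control replicate 3 or siMENA11a replicate 3 (limma adjusted p up to 0.0799, and 0.0201 to 0.0799 over the settings tried).

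Of 16 tested genes for ubiquitin, its activation and its shuttles, 1 rose under siMENA and 2 under siMENA11a, and 0 fell in either comparison by limma, with 4 and 3 at an unadjusted p under 0.05 in either direction. The shares that passed, 6.25% and 12.5%, lie below the 18.6% and 19.5% of all genes tested. UBQLN1, a shuttle that brings ubiquitin-tagged proteins to the proteasome, was at 54.04, 56.07 and 56.44 FPKM in control, 65.19, 66.00 and 65.32 under siMENA and 59.50, 61.98 and 65.24 under siMENA11a, above control in both without overlap. It rose by 0.23 and 0.16 (log2, limma adjusted p = 0.00982 and 0.044), and the siMENA11a call ended without any 1 library other than siMENA11a replicate 1, without the trend and in a fit of only these groups (limma adjusted p up to 0.128, and 0.0219 to 0.128 over the settings tried). UBA6, an enzyme that activates ubiquitin, rose by 0.20 under siMENA11a (log2, limma adjusted p = 0.0243), a call lost on leaving out control replicate 1, control replicate 3 or siMENA11a replicate 3 and in a fit of only these groups (limma adjusted p up to 0.0823, and 0.0163 to 0.0823 over the settings tried).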

How the data were processed

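The authors deposited 1 table of FPKM for 16630 genes in 9 libraries. In the sources used here, aligner, quantifier and annotation are not given, and the submitters' processing notes name hg19. The table holds no counts, and 199 values lie above 0 but below 1e-10, so values are not whole reads and depth is unknown. Whole-number values at least 100 times above the median decimal value of their gene were taken to have lost their decimal point. Whole numbers of genes with no decimal value (237 genes, 4 of them proteasome genes) were treated alike, and no ratio exists for these. The 4 are PSMB1, PSMB3, PSMB6 and PSMB10, so the division of their values could not be checked within the gene. In all, 11524 values (7.7%) were divided by 1000. Where a ratio exists, the lowest was 198 and the median 1025. Of the 423 proteasome values 141 were divided, at 864 to 1319 times above where a ratio exists.

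The 13273 genes with no missing value and a mean of 0.5 FPKM or more were compared as log2(FPKM + 1) with limma 3.58.1 in R 4.3.3, in 1 fit of 9 libraries with a trend and 6 residual degrees of freedom, with Benjamini-Hochberg adjustment. The method was tested on simulated data with independent noise in each library, which does not cover pairing of libraries or the repair of values. Groups come from the labels, which call the libraries biological replicates. Same-numbered control and siMENA libraries deviated together (correlations 0.124, 0.378 and 0.196, all above 0.1), which was taken as pairing. Control replicate 1 with siMENA replicate 3, of unlike number, also exceeded 0.1 (0.113). The main fit nevertheless holds the group only, and the pairing enters only in the replicate block. For siMENA against control the main calls and counts thus leave out this pairing, and PSMB10, PSME1 and PSMG4 passed as higher only with the block.

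All proteasome genes could be named. Full values were given for the 5 immunoproteasome genes, PSMB5, PSMB6, PSMB7 and up to 10 passing genes per comparison, and up to 4 passing genes of each other list. A few list genes that met this rule are counted but not reported by name here. Members and lists were chosen with earlier results of these data known. Alternatives were other pseudocounts, filters and scalings, the fit of only the groups compared, no trend, the replicate block, leaving out repaired genes and leaving out each library.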

Additional observations from a re-analysis of the deposited data

How the results depend on the processing

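No difference that passed reversed its direction. The median of the proteasome genes in siMENA11a against control, which has no test, was 0.02 with quantile normalization against -0.018, and the other sign changes were of differences in single genes that did not pass. Without genes that hold a repaired value, 12 proteasome genes were left. Then 1293, 1362 and 2716 genes passed (siMENA against control, siMENA11a against control, siMENA11a against siMENA), 2, 1 and 0 proteasome genes were higher and 0, 0 and 3 lower, and the median of the proteasome genes was 0.12 for siMENA against control and -0.062 between the siRNAs. Without the mean-variance trend 1 proteasome gene was lower under siMENA. With the replicate block 5 proteasome genes were higher in siMENA11a against control and 6 in siMENA11a against siMENA. Same-numbered siMENA11a libraries correlated with control at 0.206, 0.425 and -0.03 and with siMENA at 0.0863, 0.309 and 0.02. Control replicate 1 was closer to siMENA11a replicate 3 (0.321), so pairing was not taken for siMENA11a. The replicate 2 libraries of the 3 groups did deviate together (0.378, 0.425 and 0.309). Their correlations with libraries of other numbers in other groups were all below 0, and the cause was not tested. For siMENA against control the block changed no call of a proteasome gene other than those of PSMB10, PSME1 and PSMG4. With median-ratio scaling the median between the siRNAs was -0.063. Leaving out 1 library at a time, 1343 to 2903, 1500 to 2484 and 3623 to 4813 genes passed, 3 to 8, 1 to 4 and 2 to 5 proteasome genes were higher, and 1 to 2, 2 to 4 and 5 to 11 lower. The medians ran from 0.018 to 0.093, -0.053 to -0.00055 and -0.14 to -0.10, and the log2 differences of the PSMB10 to PSMB7 ratio from 0.16 to 0.31, 0.32 to 0.50 and 0.09 to 0.27. Except for the choices with fewer genes or libraries, the cause of these shifts was not tested. With 3 libraries a group and no counts, the number of libraries limits the precision of small differences.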
